A study of Mus musculus with 20 samples.

Results

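A set of 7 genes of the RAS, RAF and ERK cascade was followed through peak lists of mouse hematopoietic stem cells (HSC): the exchange factor gene Sos1, the GTPase gene Nras, the kinase genes Braf, Map2k1, Map2k2 and Mapk3, and the phosphatase gene Dusp6. They were taken by gene symbol, and all 7 were found among 21631 protein-coding genes of the mm10 genome. For each gene, every peak within 1 kb of either annotated end was recorded, as were peaks inside the gene away from its ends. A gene is called KO only where the KO list had a peak at an end and the WT list did not, and WT only where the opposite held.

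The cells came from adult mice treated with poly(I:C), an inducer of interferon that switches on the Mx1-Cre transgene, in groups that all carried 2 floxed Mtor alleles. The first group, called KO MycHet here, was Mx1-Cre+/-;mTORflox/flox;c-Myc+/flox, so that Cre also acts on 1 floxed c-Myc allele. The second, KO, was Mx1-Cre+/-;mTORflox/flox, and the third, WT, was Mx1-Cre-/-;mTORflox/flox and so carried the floxed alleles without Cre. The Mx1 promoter responds to interferon in many tissues, so Cre is not limited to HSC. Immunoprecipitations of H3K27ac, which is found at active promoters and enhancers, of H3K4me3, which is found at active promoters, and of the transcription factor MYC each had 1 KO and 1 WT library. Accessible DNA was mapped with a cutting transposase (ATAC-seq) in 2 KO MycHet, 2 KO and 2 WT libraries of 50000 cells each. Whether cells of several mice were pooled is not given in the sources used here.

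RAS proteins are switches that carry signals from cytokine receptors such as KIT into the cell. An exchange factor such as SOS1 loads RAS with GTP, RAS then recruits RAF kinases, RAF phosphorylates the kinases MEK1 and MEK2, and these phosphorylate the ERK kinases, which act on transcription factors and on kinases of translation. DUSP6 removes the activating phosphates from ERK and is itself a target gene of the pathway, which makes it a feedback inhibitor. In blood stem and progenitor cells the cascade is known for its part in proliferation and in leukemias with RAS pathway mutations.

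The lists differed in length, and read depth is unknown because peak lists carry no counts. For H3K27ac the KO list had 20036 peaks and the WT list 10078, for H3K4me3 16019 in KO and 15089 in WT, and for MYC 22086 in KO and 8774 in WT. For ATAC-seq there were 47214 and 53722 peaks in KO MycHet, 19174 and 72149 in KO, and 17303 and 66531 in WT libraries 1 and 2, so that library 1 of KO and of WT had the shortest lists. Scores are the authors' peak caller values on a scale that is not stated, and each is also given as its percentile within its own list. A percentile in a long list and one in a short list do not show a change. At Mtor, the targeted gene, the lower end had a peak in 0 of 2 KO MycHet, 0 of 5 KO and 5 of 5 WT libraries. Of 11 HSC marker genes, 7 had an H3K4me3 peak at an end in KO and 8 in WT, and markers of other cells were marked as well. Of 5 erythroid markers 3 had the peak in KO and 4 in WT, of 4 megakaryocyte markers 1 in KO and 3 in WT, and of 4 endothelial markers 3 in each. Among 6 myeloid genes it was 1 in KO and 2 in WT, among 5 T cell genes 2 in KO and 1 in WT, and among 5 B cell genes 1 in KO and 0 in WT. Since each library pools many sorted cells, a mark on fewer cells and a weaker mark in every cell cannot be told apart.

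The plot of all members by library shows the pattern that the rest of the text takes apart. All 7 genes had an ATAC-seq peak at an end in all 6 libraries, which was true of 40.0% of all genes. Single libraries had a peak at 62.0% and 62.3% of all genes in KO MycHet, 44.7% and 65.7% in KO, and 44.7% and 66.1% in WT. H3K27ac lay at an end of 6 members in KO and 3 in WT, against 39.6% and 14.6% of all genes. The 3 members Braf, Map2k1 and Mapk3 were KO only (background 25.8%), 0 were WT only (0.767%), Nras, Map2k2 and Dusp6 had the mark in both genotypes (13.8%), and Sos1 in neither (59.7%). H3K4me3 lay at an end of 5 members in KO and 7 in WT, against 54.3% and 52.9% of all genes, with Sos1 and Dusp6 WT only (1.52%), 0 KO only (2.94%), 5 marked in both genotypes (51.4%) and 0 in neither (44.2%). Among the genes with H3K4me3 in WT, 2.88% were WT only. Both members were also open in all 6 ATAC-seq libraries, a combination found at 0.656% of all genes. MYC lay at an end of 2 members in KO and 1 in WT, against 22.3% and 10.3% of all genes. Map2k2 was KO only for MYC (14.4%), 0 members were WT only (2.35%), Dusp6 was bound in both genotypes (7.93%) and 5 members in neither (75.3%). With 1 library per genotype these differences have no replicate check and no p-value.

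**Figure D1:**
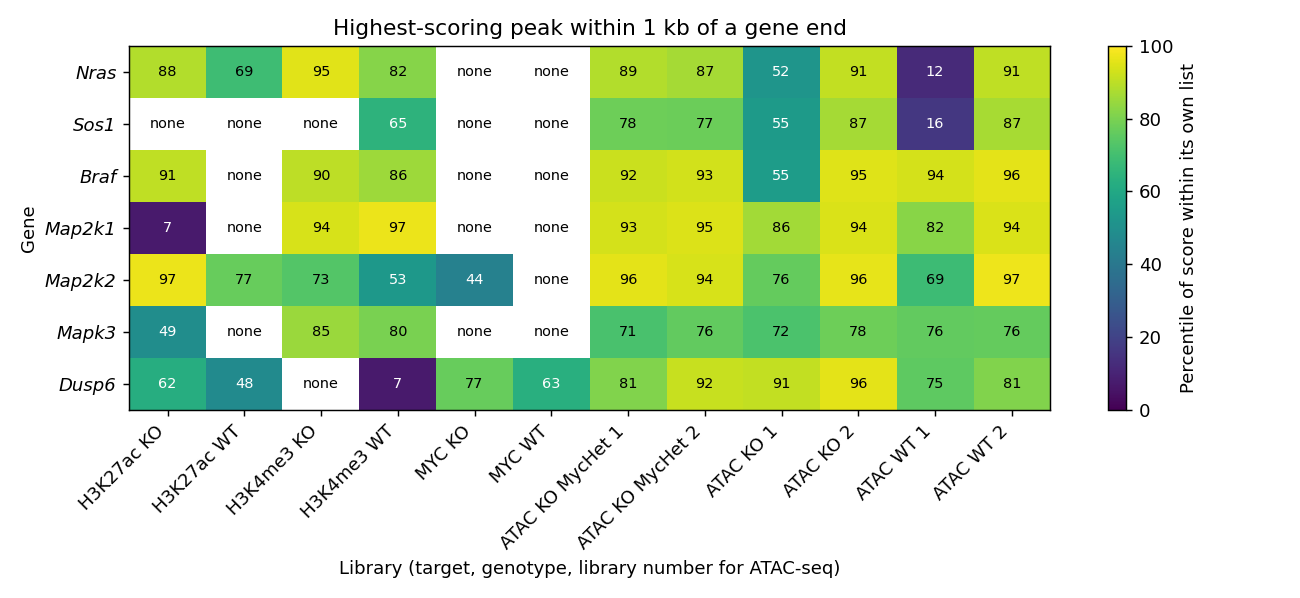
Each cell gives the percentile, within its own list, of the highest-scoring peak within 1 kb of an end of the gene in that row, for the library in that column, and white cells have no peak. All 7 genes had an ATAC-seq peak in all 6 libraries, Sos1 and Dusp6 had no H3K4me3 peak in KO, and Braf, Map2k1 and Mapk3 had H3K27ac in KO and not in WT.

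The number of KO-only members depended on the length of the KO list. When the KO list was shortened to its 10078 highest-scoring peaks, 1 member, Braf, was still KO only, against 18.4% of all genes, because the peaks of Map2k1 and Mapk3 no longer counted, and 0 were WT only (1.78%). For H3K4me3, with lists of equal length, 0 members were KO only (2.35%) and the same 2 WT only (1.90%). Among the 11109 genes with H3K4me3 in both genotypes, 46.7% were KO only for H3K27ac, and 3 of the 5 members in that set were. Of the other classes for H3K27ac in that set, 0 members were WT only (0.855%), 2 had the mark in both genotypes (25.8%) and 0 in neither (26.7%). For MYC, 1 of these 5 was KO only (24.8%), 0 were WT only (3.71%), 0 were bound in both genotypes (14.5%) and 4 in neither (57.0%). Markers of cell types other than HSC, apart from the myeloid ones, also had more H3K27ac in KO, beside 39.6% of all genes in KO and 14.6% in WT. In KO the mark lay at 2 of 5 erythroid, 0 of 6 myeloid, 1 of 5 B cell and 2 of 5 T cell genes. It also lay at 2 of 4 megakaryocyte and 2 of 4 endothelial genes in KO. In WT it lay at 1 T cell gene and 0 of the others. HSC markers had 6 of 11 in KO and 1 of 11 in WT. The part of these in the members' result was not tested.

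The letters of 4 of the 5′ ends are given because results below turn on them. RefSeq promoters (GRCm38.p6, from 250 bases before to 50 after the annotated start) were on hand for 6 of the 7 members. Capitals mark the motifs searched on either strand, CACGTG (the E-box that MYC can bind), TGACGTCA (the cyclic AMP response element), CCGGAAG (an ETS motif) and GGGCGG (the GC box). Of 21020 promoters, 7.91% held the first, 2.26% the second, 11.7% the third and 46.6% the fourth. Sos1 lies on the minus strand at chr17:80480404-80480703, Nras on the plus strand at chr3:103058035-103058334, Braf on the minus strand at chr6:39725414-39725713 and Dusp6 on the plus strand at chr10:99262981-99263280.
Sos1: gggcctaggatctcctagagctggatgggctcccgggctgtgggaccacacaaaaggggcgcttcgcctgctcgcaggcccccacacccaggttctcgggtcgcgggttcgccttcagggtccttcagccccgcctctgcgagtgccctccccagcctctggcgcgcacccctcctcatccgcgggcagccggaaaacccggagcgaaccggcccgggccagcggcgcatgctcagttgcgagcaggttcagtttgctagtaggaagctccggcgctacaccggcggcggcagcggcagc
Nras: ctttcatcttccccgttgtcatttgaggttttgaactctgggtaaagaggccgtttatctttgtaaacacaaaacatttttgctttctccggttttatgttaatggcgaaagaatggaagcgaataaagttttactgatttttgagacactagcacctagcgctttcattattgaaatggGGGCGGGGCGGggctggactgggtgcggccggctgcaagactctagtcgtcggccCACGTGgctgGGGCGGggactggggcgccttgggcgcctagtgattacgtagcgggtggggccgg
Braf: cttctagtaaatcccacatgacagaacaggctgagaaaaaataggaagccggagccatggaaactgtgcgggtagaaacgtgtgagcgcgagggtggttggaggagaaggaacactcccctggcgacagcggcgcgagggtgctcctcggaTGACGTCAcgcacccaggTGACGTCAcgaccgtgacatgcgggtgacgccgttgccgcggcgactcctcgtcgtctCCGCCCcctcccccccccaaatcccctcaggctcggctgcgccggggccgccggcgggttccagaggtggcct
Dusp6: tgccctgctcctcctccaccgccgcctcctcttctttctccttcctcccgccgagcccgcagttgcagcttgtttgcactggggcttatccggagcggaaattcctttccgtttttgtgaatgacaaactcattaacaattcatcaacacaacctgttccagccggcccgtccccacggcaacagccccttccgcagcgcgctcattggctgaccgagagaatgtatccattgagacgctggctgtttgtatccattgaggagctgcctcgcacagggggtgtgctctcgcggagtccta
Nras held 1 E-box, which starts 15 bases before the annotated start, and 3 GC boxes, of which a pair overlap by 1 base. Braf held 2 cyclic AMP response elements, starting 99 and 81 bases before the start, and 1 GC box. Sos1 and Dusp6 held none of these motifs. These are matches of letters only.

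Sos1 encodes the exchange factor that activates RAS downstream of receptor tyrosine kinases. It was the member with the least marked promoter in KO: open in every ATAC-seq library, but without H3K4me3, H3K27ac or MYC within 1 kb of either end. The gene (ID 20662) spans chr17:80393752-80480453 on the minus strand. In WT an H3K4me3 peak of 3360 bp covered its 5′ end, from position -1028 to 2331 relative to that end, with a score of 389.66 (percentile 64.8). The KO list had no H3K4me3 peak at either end or inside the gene, and the KO peak nearest to the WT peak lay 71198 bp away. Few peaks of this height were without a counterpart. Of 5316 WT H3K4me3 peaks with at least this score, 17 overlapped no KO peak, 0.320% (exact Clopper-Pearson 95% CI 0.186 to 0.512, counting error only). In the other direction, 0 of 5671 KO peaks with at least this score lacked a WT peak (exact CI 0 to 0.0650%). The same raw score was the cut in both lists, although its scale is not stated, and the Sos1 peak is itself among the 17. The 17 WT peaks had a median width of 4086 bp, against 2184 bp for the whole WT list, and 13 of them overlapped an ATAC-seq peak in all 6 libraries. By width instead of score, 130 of 2844 WT peaks of at least 3360 bp overlapped no KO peak, 4.57%, against 6.69% of all WT peaks.

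The open region at the Sos1 5′ end scored 315.3 and 315.72 in the KO MycHet libraries, 93.41 and 521.7 in the KO libraries, and 59.95 and 596.35 in the WT libraries. The low values were those of library 1 of KO and of WT, the short lists, and the groups overlapped. No H3K27ac peak lay within 1 kb of either end in KO or WT. In KO a peak of score 109.12 lay upstream at chr17:80482056-80483068, outside the window of 1 kb but within 2500 bp of the 5′ end. Another of score 63.66 lay within 2500 bp of the 3′ end. With a window of 2500 bp Sos1 was thus KO only for H3K27ac. Among 4695 genes with a WT H3K4me3 score at least as high and ATAC-seq peaks in all 6 libraries, 6.96% (CI 6.25 to 7.73) lacked H3K27ac at an end in KO and 61.0% (59.5 to 62.4) in WT.

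Inside Sos1 an open site, which reached from about 11 to 12 kb from the 5′ end, scored above the promoter in every ATAC-seq library. The merged region, chr17:80468005-80469260, scored 771.12 and 897.44 in KO MycHet, 262.32 and 1404.31 in KO, and 336.05 and 1032.45 in WT libraries. These are percentiles 95.9 and 96.8, 94.4 and 99.1, and 96.6 and 95.7 of their lists. The site was thus among the highest-scoring of its list in all groups. A MYC peak lay there in KO (score 107.54, percentile 76.4) and not in WT, and an H3K27ac peak in WT (64.35, percentile 46.0) and not in KO. Of 7 ATAC-seq regions in the bodies of the members, 1, this site, was found in all 6 libraries. Of all 85640 merged regions, at gene ends or elsewhere, 14.7% were. The share for body regions alone was not computed. The gene table gives no exons, so whether it lies in an intron was not determined.

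Sos1 also held 2 further MYC peaks in KO. At chr17:80403653-80404117 a peak scored 408.53 (percentile 98.9), and at chr17:80421438-80422261 a peak scored 88.78 (percentile 65.1). Neither overlapped an ATAC-seq, H3K27ac or H3K4me3 peak of any library. That is common in this list: of the 242 KO MYC peaks that scored at least 408.53, 97 overlapped an ATAC-seq peak, 40.1%, and of all 22086 KO MYC peaks 44.1% did so.

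**Figure D2:**
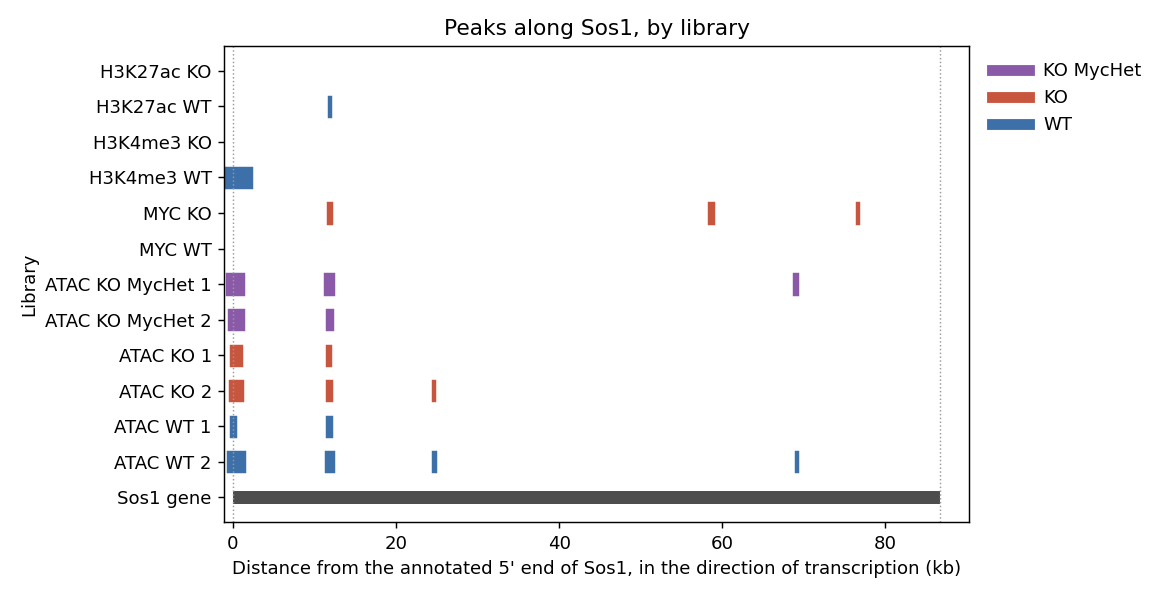
Bars show peaks of each library (rows) along Sos1, by distance from its 5′ end in kb, with the gene itself at the bottom and dotted lines at its ends. The ATAC-seq peaks at the 5′ end and near 12 kb recur in all 6 libraries, the H3K4me3 peak is in WT and not in KO, and the 3 MYC peaks are in KO and not in WT.

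Nras, the GTPase that SOS1 activates and a gene often mutated in myeloid leukemia, was marked in both genotypes and had no MYC peak in either. The gene (ID 18176) spans chr3:103058285-103067914 on the plus strand, and its peaks also lie within 1 kb of an end of another gene, so no peak can be assigned to Nras alone. H3K27ac scored 297.54 in KO, with a width of 2770 bp, and 78.9 in WT, with a width of 712 bp, at percentiles 88.4 and 68.9. The KO peak spanned the start, from position -996 to 1773, and the WT peak began 30 bp inside the gene. H3K4me3 scored 675.73 in KO and 504.97 in WT, at widths of 3158 and 2497 bp. The E-box printed above therefore lay under H3K4me3 and ATAC-seq peaks in both genotypes and under no MYC peak. Of 1556 genes with CACGTG in their promoter, 31.6% (CI 29.3 to 34.0) had a MYC peak at an end in KO and 14.7% (12.9 to 16.5) in WT, against 22.4% and 10.5% of 15695 genes without it.

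ATAC-seq peaks at Nras scored 505.19 and 480.23 in KO MycHet, 90.04 and 669.5 in KO, and 57.02 and 730.65 in WT libraries. Library 2 of KO and WT and both KO MycHet libraries placed it at percentiles 86.6 to 91.0, whereas library 1 placed it at 52.0 in KO and 11.8 in WT. The groups overlapped.

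Braf, which encodes the RAF kinase with the highest basal activity towards MEK, was KO only for H3K27ac, with a high-scoring peak that also remained with lists of equal length. The gene (ID 109880) spans chr6:39603231-39725658 on the minus strand. The KO H3K27ac peak at the 5′ end scored 323.81 (percentile 90.6) and was 2171 bp wide, and WT had none at the 5′ or the 3′ end. A second KO peak lay 227 bp beyond the 3′ end, at chr6:39600919-39603004, with a score of 97.62. H3K4me3 at the 5′ end scored 592.86 in KO and 533.37 in WT, at widths of 2986 and 2460 bp, and the promoter with its 2 response elements was covered by the mark over 300 bases in KO and 290 in WT.

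A KO MYC peak in Braf lay just outside the window, 1131 to 1682 bp inside the gene from the 5′ end, with the low score of 54.08 (percentile 13.3). ATAC-seq peaks at the Braf 5′ end scored 607.52 and 691.93 in KO MycHet, 94.88 and 878.18 in KO, and 282.44 and 1057.61 in WT libraries. The lowest value was that of KO library 1, and the ranges of the 3 groups overlapped. Inside the gene, 1 ATAC-seq region was found, in WT library 2 alone.

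Map2k1 and Map2k2 encode the kinases MEK1 and MEK2, which phosphorylate ERK and are close in function, and their promoters differed in H3K27ac. Map2k2 had the highest H3K27ac percentile of the 7 genes in KO and Map2k1 the lowest of the 6 genes with a peak. Map2k1 (ID 26395; chr9:64185769-64253605, minus strand) had a KO peak with a score of 53.59 (percentile 7.28), near the list's minimum of 50, and no WT peak. Map2k2 (ID 26396; chr10:81105913-81124697, plus strand) had a score of 468.15 in KO (percentile 97.2; 2127 bp) and 88.18 in WT (percentile 76.9; 480 bp). For H3K4me3 the order was the reverse. Map2k1 scored 647.57 in KO and 696.82 in WT, at percentiles 93.9 and 97.0. Map2k2 scored 450.15 in KO and 318.29 in WT, at percentiles 73.1 and 53.4. Both genes were thus marked by H3K4me3 in both genotypes.

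MYC lay at the start of Map2k2 in KO, from 114 to 940 bp inside the gene, with a score of 68.85 (percentile 44.1), and not in WT. With the KO list shortened to 8774 peaks, the length of the WT list, the Map2k2 peak no longer counted, and 0 members were KO only, against 5.67% of all genes. Map2k1 had no MYC peak in either genotype. Inside Map2k1, a KO H3K27ac peak scored 129.83 at chr9:64202353-64203911, above that of its promoter. It overlapped an ATAC-seq region found in 1 KO MycHet, 1 KO and 1 WT library.

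The 5′ ends of both genes were open in all groups. Map2k1 scored 653.69 and 762.5 in KO MycHet, 186.88 and 831.95 in KO, and 189.16 and 928.06 in WT ATAC-seq libraries. Map2k2 scored 764.05 and 728.85 in KO MycHet, 143.19 and 970.44 in KO, and 135.53 and 1183.02 in WT. In both genes library 1 of KO and of WT held the low values, and the 3 groups overlapped.

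Mapk3 encodes ERK1, 1 of the kinases at the end of the cascade, and its lower end had H3K4me3 in both genotypes and a middling H3K27ac peak in KO. The gene (ID 26417) spans chr7:126759626-126765816. The KO H3K27ac peak at the lower end scored 102.2 (percentile 49.0; 1183 bp), and no WT peak was found. H3K4me3 scored 543.9 in KO and 489.72 in WT, at percentiles 85.1 and 80.0 and widths of 2027 and 1399 bp. MYC was at neither end in either genotype. ATAC-seq peaks scored 243.78 and 295.8 in KO MycHet, 128.33 and 342.42 in KO, and 158.05 and 354.34 in WT libraries. Their percentiles ran from 71.1 to 78.0, the narrowest range of the 7 genes, with no group apart from the others.

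Dusp6, the feedback phosphatase of ERK, was the member with the widest domains and the only 1 of the 7 with MYC in both genotypes. It also lacked an H3K4me3 peak in KO. The gene (ID 67603) spans chr10:99263231-99267489 on the plus strand. In WT an H3K4me3 peak of 8515 bp covered the whole gene, from position -2829 relative to the 5′ end to beyond the 3′ end, with the low score of 65.06 (percentile 7.22). The KO list had no H3K4me3 peak on the gene, and the nearest lay 54942 bp away. Most WT peaks of such width had no KO counterpart. Of 11 WT peaks at least as wide, 10 overlapped no KO peak, 90.9% (CI 58.7 to 99.8), and 9 of the 10 were open in all 6 ATAC-seq libraries. The Dusp6 peak, whose width set the cut, is itself among the 11, the 10 and the 9. Of the 7 KO peaks at least as wide, 0 lacked a WT peak (exact CI 0 to 41.0%). By score instead of width, 535 of 14000 WT peaks of at least 65.06 overlapped no KO peak, 3.82%. Over the whole lists 6.69% of WT peaks overlapped no KO peak.

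H3K27ac at Dusp6 covered 5673 bp in KO, with a score of 138.78 (percentile 62.3), and 785 bp in WT, with a score of 65.21 (percentile 48.0). The KO peak ran from position -2866 to 2806 relative to the 5′ end, and the WT peak from -1069 to -285. MYC scored 108 in KO (percentile 76.6; 1043 bp) and 78.98 in WT (percentile 63.1; 724 bp). Both MYC peaks covered all 300 bases of the promoter printed above, in which no CACGTG was found.

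Dusp6 was open at its 5′ end in all 6 libraries, with scores of 361.16 and 630.49 in KO MycHet, 222.39 and 948.22 in KO, and 155.58 and 439.88 in WT. Library 1 of WT had the lowest value and library 2 of KO the highest, and the groups overlapped. The widths were 5616 and 4034 bp in KO MycHet, 2642 and 3475 bp in KO, and 1290 and 5785 bp in WT. A second open region beyond the 3′ end, chr10:99268279-99269986, was found in all 6 libraries. Its peak lay within 1 kb of the gene in 4 of them, with scores of 135.08 and 192.7 in KO MycHet, 195.16 in KO library 2 and 236.26 in WT library 2, and farther away in library 1 of KO and of WT.

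**Figure D3:**
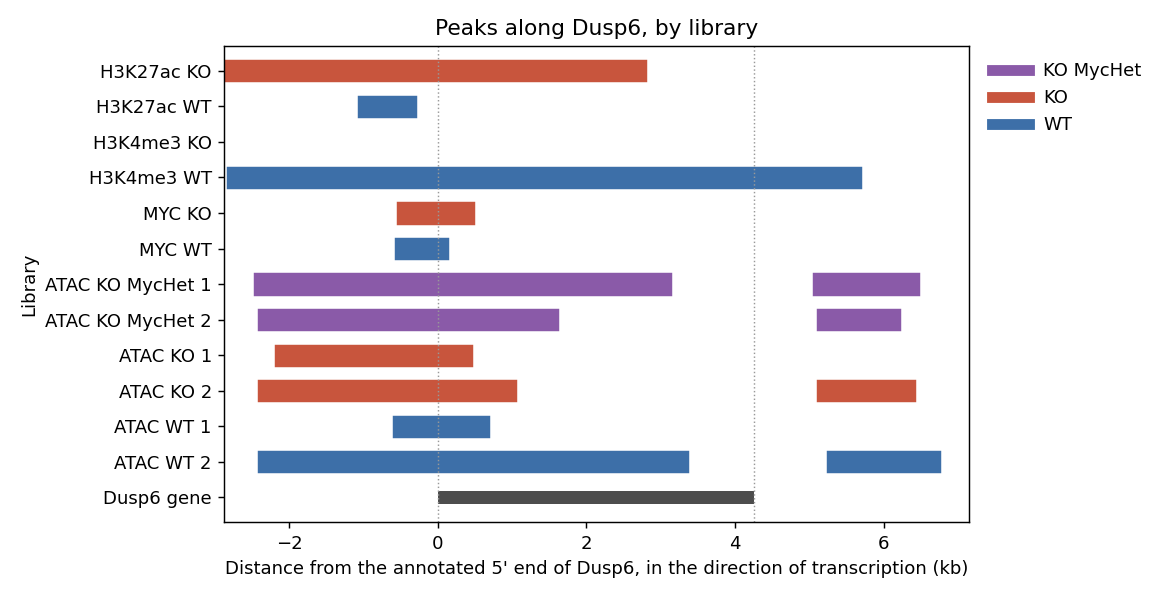
Bars show peaks of each library (rows) along Dusp6, by distance from its 5′ end in kb, with the gene at the bottom and dotted lines at its ends. The H3K27ac peak is 5673 bp wide in KO and 785 bp in WT, MYC covers the 5′ end in both, and the 8515 bp H3K4me3 peak is in WT and not in KO.

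Across members, H3K27ac peaks were wider in KO wherever both genotypes had one. The highest-scoring end peaks measured 1183 to 5673 bp in 6 members in KO and 480 to 785 bp in 3 members in WT. The medians of the whole lists were 1237 and 333 bp, so KO peaks were wider over the whole list as well. The part of this in the members' widths was not tested. H3K4me3 end peaks measured 2027 to 3158 bp in 5 members in KO and 1399 to 8515 bp in 7 members in WT, with list medians of 2608 and 2184 bp. At the 5 members marked in both genotypes the H3K4me3 peak was also wider in KO.

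**Figure D4:**
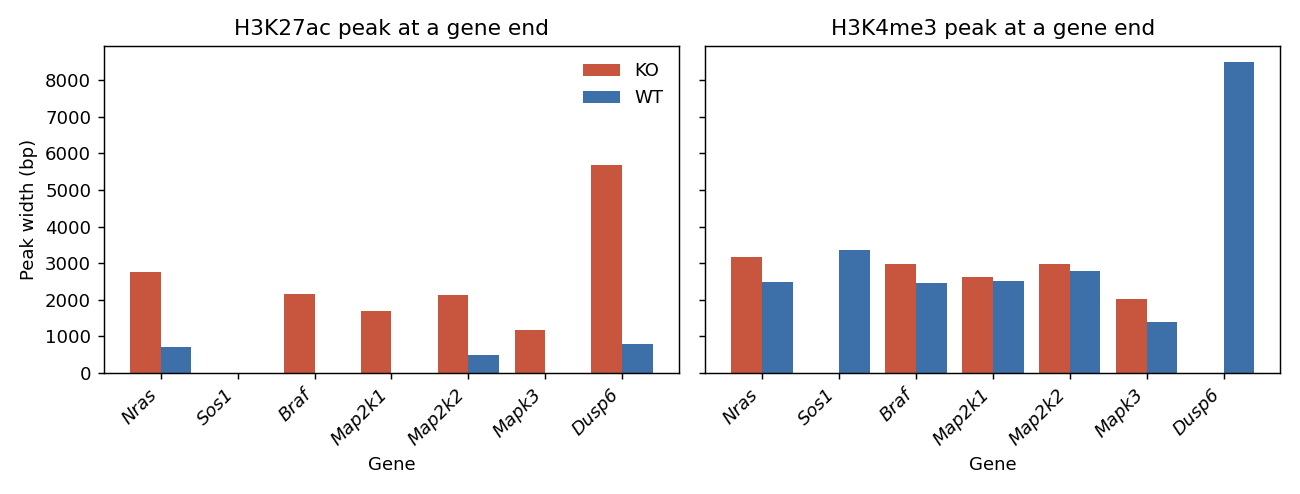
Bars give the width in bp of the highest-scoring H3K27ac (left) and H3K4me3 (right) peak within 1 kb of an end of each gene, with 1 KO and 1 WT library per mark, and no bar where there was no peak. H3K27ac widths reach 5673 bp in KO and 785 bp in WT, and the H3K4me3 bars of Sos1 and Dusp6 are in WT alone.

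No member changed its open state at an end between groups. Genes open in both KO and neither WT library made up 0.0277% of all genes, and those open in both WT and neither KO library 0.0231%, and 0 members were in either class. For KO MycHet against KO these shares were 0.411% and 0.0416%, and for KO MycHet against WT 0.361% and 0.0693%, again with 0 members. Both KO MycHet lists were longer than library 1 of KO and of WT, so these shares also compare lists of unequal length. No test was run, since 2 libraries against 2 allow no two-sided exact permutation p below 0.33. In the gene bodies, 3 ATAC-seq regions were found in KO MycHet, 5 in KO and 6 in WT. Without library 2, KO and WT each kept 1, the site in Sos1. Per 100 kb, body peaks of the members were fewer than those of all genes in every library. They numbered 0.663 and 0.663 in KO MycHet (all genes 1.86 and 2.21), 0.331 and 1.66 in KO (0.577 and 3.09), and 0.331 and 1.99 in WT (0.485 and 2.83). The KO and WT values were low in library 1, which had the short lists.

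Away from the gene ends, the members held 4 MYC peaks in KO and 0 in WT, of which 3 lay in Sos1 and 1 in Braf. Per 100 kb of gene body this was 1.33 in KO and 0 in WT, against 0.852 and 0.324 over all genes. H3K27ac had 1 body peak in KO, in Map2k1, and 1 in WT, in Sos1. That is 0.331 per 100 kb in either genotype, against 0.686 in KO and 0.334 in WT over all genes. H3K4me3 had 0 in either genotype, against 0.320 in KO and 0.292 in WT over all genes.

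The wider pathway was described with 67 further genes, from receptors to ERK targets, all of which were matched by symbol. Peaks lay at their ends, 5′ or 3′, more often than at those of all genes in both genotypes. H3K27ac lay at 38 of 67 in KO and 16 in WT, H3K4me3 at 54 in KO and 55 in WT, and MYC at 24 in KO and 15 in WT. Open chromatin in all 6 ATAC-seq libraries was found at 45 of 67. For H3K27ac 23 genes were KO only, 34.3%, against 25.8% of all genes, and 1 was WT only, 1.49% against 0.767%. Among the 53 with H3K4me3 in both genotypes, 43.4% were KO only, close to the 46.7% of all such genes. With lists of equal length 10 genes were KO only for H3K27ac, 14.9% against 18.4% of all genes, and 2 were WT only, 2.99% against 1.78%.

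**Figure D5:**
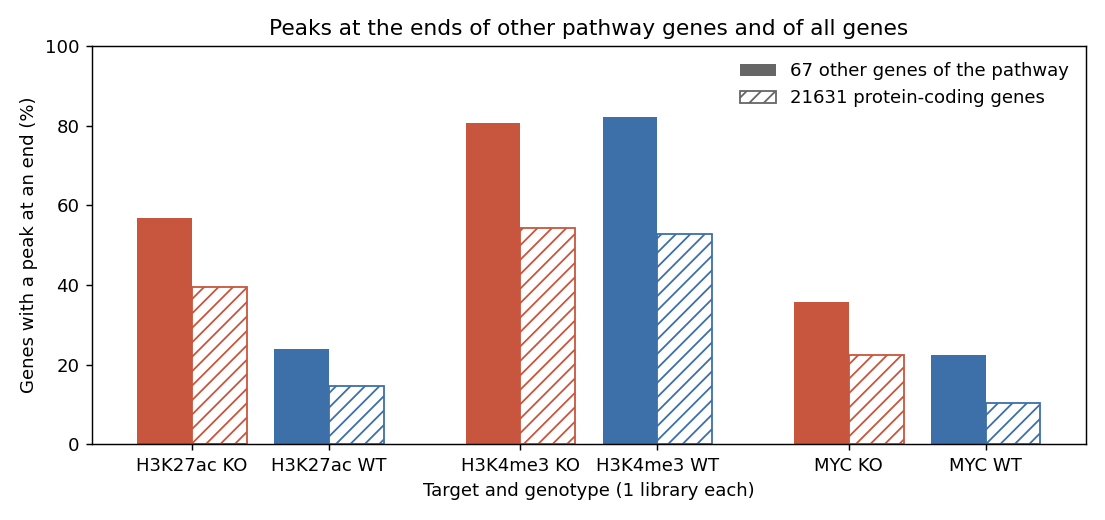
Bars give the percentage of the 67 other pathway genes (filled) and of 21631 protein-coding genes (hatched) with a peak within 1 kb of an end, for 1 KO (red) and 1 WT (blue) library per target. The pathway genes stand above all genes for every target in KO and in WT, for example 56.7% against 39.6% for H3K27ac in KO.

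The counts by role are small and stand beside 39.6% in KO and 14.6% in WT for all genes. The GTPase-activating proteins, which switch RAS off, had H3K27ac at 6 of 9 genes in KO and 0 in WT. Among them the KO scores were 255.2 at Nf1 and 196.31 at Rasa1, and lower at Rasal3 (97.18), Rasa3 (89.06) and Rasa2 (68.24), which are below the score of the Mapk3 peak that no longer counted in the shortened list. Feedback phosphatases and the Sprouty family, which restrain receptor signalling, had it at 9 of 13 in KO and 3 in WT. Over the whole pathway list, the highest KO-only scores were those of the ERK phosphatase gene Dusp4 (362.35), Ptpn11 (274.19) and Spry2 (265). Ptpn11, a receptor-associated phosphatase gene, was listed among the receptors and adaptors. The ETS factor gene Etv4 (63.45) was WT only. RAS GTPases had the mark at 3 of 5 in KO and 1 in WT, RAF kinases and their scaffolds at 5 of 9 and 2, and receptors and adaptors at 4 of 9 and 2. Exchange factors had it at 2 of 7 in either genotype, and ERK substrates and target genes at 7 of 12 in KO and 5 in WT. These genes for GTPase-activating proteins were named after their values were seen.

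H3K4me3 differed at few of these genes. The exchange factor gene Rasgrp4 (376.9) was KO only, and the stem cell factor receptor gene Kit (150.84) and the phosphatase gene Dusp9 (90.82) were WT only. Together these were 1 and 2 of 67 genes, 1.49% and 2.99%, against 2.94% and 1.52% of all genes. For MYC 13 genes were KO only, 19.4% against 14.4% of all genes, and 4 were WT only, 5.97% against 2.35%. The highest KO-only scores were at Spred1 (141.52), an inhibitor of RAS activation, Ptpn11 (122.46) and Rasgrp4 (105.48), and the highest WT-only scores at the exchange factor gene Rasgrp2 (73.15) and at Spred3 (61.42). With lists of equal length the balance turned, with 5 genes KO only (7.46%) and 8 WT only (11.9%), against 5.67% and 4.59% of all genes.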

How the data were processed

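Peak lists of 12 of the 20 samples were used, 1 per library, and the 8 RNA-seq samples were not analysed here. Each row of a deposited list holds a position, a MACS-style name and the authors' score for that peak, whose scale is not stated. No score was below 50. Per the submitters' processing notes, the build was mm10 and CASAVA was among the tools. Caller settings, input controls and read handling were not given in the sources used here.

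Chromosomes 1 to 19 and X were used, with starts counted from 1. Gene positions came from RefSeq (GRCm38.p6). A peak was at an end when it shared at least 1 bp with the window of 1 kb on either side. The promoter table gave the strand of 17274 genes. ATAC-seq peaks that overlapped were merged into regions. Overlap counts were tested on simulated data against bedtools 2.31.1, and intervals used scipy 1.17.1. The alternatives were windows of 500 and 2500 bp, a score of at least 100, lists of equal length, an overlap of 200 bp, the 5′ end only, and each ATAC-seq library left out.

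All 7 members are named. Of the pathway list, the rule took, per target, those of highest score, 3 of the KO-only and 2 of the WT-only genes, and for each member the 2 genes of most similar pattern. The members and lists were chosen with earlier results of these data known. Replicates were taken from the titles, and no label says that libraries came from separate mice. Values of some single genes are not reported here.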

Additional observations from a re-analysis of the deposited data

How the results depend on the processing

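Of 192 values under other settings, 157 stayed within 1.5 times the count reported. The counts with windows of 500 bp and with an overlap of at least 200 bp all did so, and 7 of 7 members kept an ATAC-seq peak in all libraries whichever library was left out. No paired analysis was possible because the results come from no test and only the ATAC-seq groups have more than 1 library. With a window of 2500 bp, members WT only for H3K4me3 numbered 1, since a KO peak near the 3′ end of Sos1 then counted. Members KO only then numbered 4 for H3K27ac, with Sos1 added, and 2 for MYC. Pathway genes KO only for H3K4me3 numbered 0. With the 5′ end only, every gene without a listed strand, Mapk3 among them, counted as having no peak. Strand was on hand for 17274 of 21631 genes. Pathway genes then numbered 0 for H3K27ac WT only, 0 for H3K4me3 KO only and 1 for H3K4me3 WT only. The part of missing strands in these counts was not tested. Where a gene was called only if no peak of the other genotype overlapped, pathway genes KO only for H3K4me3 numbered 0. With gene ends included, member peaks numbered 8 in KO and 4 in WT for H3K27ac, 5 in KO and 7 in WT for H3K4me3, and 1 in WT for MYC.

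With scores of at least 100, 0 members had H3K27ac in WT and 5 were KO only, 1 was WT only for H3K4me3, and MYC lay at 1 member in KO and 0 in WT. The 3 WT H3K27ac peaks scored 65.21 to 88.18, so this raw cut removes them. Shares of all genes at this cut or with other windows were not computed, so these member counts have no background beside them. ATAC-seq peaks were then left at 4 members in KO library 1 and at 4 in all libraries, and body peaks numbered 0 for H3K27ac in WT and 2 for MYC in KO. Pathway genes then numbered 0 for H3K27ac WT only, 3 and 1 for H3K4me3 KO only and WT only, and 8 and 2 for MYC KO only and WT only. With equal numbers of peaks, 1 member was KO only for H3K27ac, 1 had MYC in KO and 0 were KO only for MYC. Pathway genes then numbered 10 and 2 for H3K27ac KO only and WT only, and 5 and 8 for MYC. Leaving out each ATAC-seq library in turn gave 1 to 5 body regions in KO, 1 to 6 in WT and 2 to 2 in KO MycHet, the lowest without library 2 of KO or WT. The cause of these differences was not tested beyond the construction of each setting. Depth is unknown, and a peak below the caller's threshold is not listed.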

Other observations

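The genes whose pattern was most like that of each member were sought over all protein-coding genes, leaving out predicted genes, RIKEN clones and genes that share a peak with that member. The measure was the Euclidean distance over 12 libraries between the list percentiles of the highest-scoring end peak, with 0 where there was none. Libraries of the same target share their source, and a small distance is a description with no test. Sppl2a (17.3) and Tssk4 (19.6) came nearest to Nras, against a median distance of 174 over all genes. Braf was nearest to Fam214b (14.7) and Ppp2r2a (15.0), with a median of 180. For Map2k1 the nearest were Rbm11 (11.1) and Pnpla6 (12.8), again against 180. Map2k2 was equally near to Prr3 and Gnl1 (20.1 each), with a median of 184. Genes that share peaks with each other were not left out, so these 2 may stand for the same peaks. Mapk3 had Lrrc46 (19.1) and Scaper (20.0), with a median of 156. Sos1, which combines an open promoter with H3K4me3 in WT and no other mark, was nearest to Vamp5 (23.8) and Rfx7 (31.1), with a median of 155. Dusp6 had the most distant neighbours of the 7 members, Foxo3 (51.3) and Dgat2 (52.1), with a median of 185.

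The pattern of H3K4me3 in WT only at a gene open in all 6 ATAC-seq libraries was found at 142 genes, 0.656% of all. Of these, 35.2% (exact Clopper-Pearson 95% CI 27.4 to 43.7) had no H3K27ac at an end in KO and 63.4% (54.9 to 71.3) none in WT. Sos1 was among the 46 with none in either, and Dusp6 was among those with the mark in both.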
